A study of Neogale vison with 6 samples.

Results

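The genes examined here encode the machinery that moves proteins into, through and out of the endoplasmic reticulum (ER) and the Golgi. They comprise the protein-conducting channel of the ER with its signal peptidase, the COPII and COPI vesicle coats, the TMED (p24) cargo adaptors, the TRAPP tethering complexes and the clathrin-type adaptor complexes AP-1 to AP-5. They were taken from the table of read counts by gene symbol alone: SEC followed by a number, the COPI subunits COPA to COPZ2, TRAPPC, TMED and the AP subunits other than the α subunits of AP-2. This gave 70 of the 24526 genes in the table. The libraries were made from Mv1Lu cells, an epithelial cell line from mink lung, with 3 libraries of untreated cells (control) and 3 of cholesterol-depleted cells (CD). Cells of the CD group had received 50 μM lovastatin, an inhibitor of HMG-CoA reductase, with 50 μM mevalonate, in medium containing 10% lipoprotein-deficient serum, for 16 h. The effects of the statin, of mevalonate and of the serum cannot be told apart, and fewer cells of a kind cannot be told apart from less RNA per cell. The labels do not say whether the 3 libraries of a group came from separate cultures, so the p-values measure the spread between these libraries.

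Secretory and membrane proteins enter the ER through the SEC61 channel and lose their signal peptide to the signal peptidase. COPII coats, in which SEC23 and SEC24 form the inner layer and SEC13 and SEC31 the outer cage, bud from exit sites organized by SEC16 and carry cargo towards the Golgi, while COPI coats return escaped proteins to the ER. SEC24 also binds SCAP, the escort that takes the sterol-sensing SREBP transcription factors from the ER to the Golgi when sterol is low, so that the COPII coat lies on the route by which cells sense cholesterol. TRAPP complexes tether vesicles and activate Rab GTPases, and the AP complexes select cargo at the trans-Golgi network, the plasma membrane and endosomes.

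The reads counted on genes numbered 13473820 to 18633764 per library. Expression is given as CPM after TMM scaling, that is, as the counts of a gene relative to all reads on genes in the library, which is not divided by gene length, so that levels are compared between libraries and not between genes. CD was compared with control by the quasi-likelihood test of edgeR over all 12148 genes with enough counts, and the effect is given as the log2 fold change of CD over control (log2FC) with its standard error (SE). A gene was called higher or lower at an FDR (Benjamini-Hochberg) under 0.05. The CD libraries were less alike than the control libraries, with a biological coefficient of variation of 0.213 against 0.0852. On the second principal component CD replicate 3 lay farthest out, at 37.2, with CD replicate 1 at -30.8 on the other side. CD replicate 2 was at -7.58 and the control libraries were between -3.29 and 4.08. CD replicate 3 also had 9.37% unmapped reads, against 3.54% and 4.33% in CD replicates 1 and 2, while the control libraries had 4.25% to 18.4%. Results are therefore also given without CD replicate 3 where this matters. HMGCS1, a target of SREBP2, rose from 130 ± 15.6 to 1404 ± 239 CPM (SD, n = 3 each) and INSIG1 from 41.1 ± 4.77 to 131 ± 13.4 CPM. Of 10 epithelial markers, 8 were found by symbol, with a summed level of 1092 to 1217 CPM in control and 590 to 674 CPM in CD libraries, mostly from KRT19, which was lower in CD (936 ± 66.9 and 458 ± 77.1 CPM). CLDN4 and DSP of the same list were higher, with 0.603 ± 0.231 and 7.03 ± 1.11 CPM for CLDN4 and 1.87 ± 0.424 and 5.16 ± 1.24 CPM for DSP. CLDN4 had enough counts for the test only because of the CD libraries. EPCAM, CDH1 and CLDN7 were under 1 CPM in every library. Of 16 markers of blood, endothelial and fibroblast cells, 15 were found, summing to 318 to 396 CPM in control and 206 to 253 CPM in CD libraries. No count of the leukocyte marker PTPRC or the endothelial marker CDH5 was found in control, and the fibroblast collagens COL1A2 and COL3A1 were at 212 ± 24.6 and 97.3 ± 14.3 CPM there and lower in CD. Of this list, 9 markers were tested, with 4 lower and 3 higher, the latter being CD68 (5.45 ± 0.273 and 19.7 ± 2.75 CPM), CD14 (0.145 ± 0.0741 and 0.817 ± 0.0938 CPM) and VWF (0.103 ± 0.0898 and 1.20 ± 0.401 CPM). CD14 and VWF had enough counts for the test only in the CD libraries, which fixed the direction of their calls. The part of these markers in the results was not tested.

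Of the 70 genes, 64 had enough counts for the test, and CD gave 7 higher and 13 lower calls at an FDR under 0.05. These calls make up 10.9% and 20.3% of the 64 genes, or 31.2% together, whereas among all tested genes 24.8% were called higher and 22.9% lower, or 47.7% together. The lower calls include AP3B2 and AP1M2, which had enough counts for the test only because of the control libraries. A change of at least 2-fold was called in 4 higher genes (SEC16B, TRAPPC6B, AP3S1 and AP4E1) and 3 lower ones (TMED1, TMED4 and AP1M2), against 10.6% and 9.64% of all tested genes. The median absolute log2FC was 0.27, against 0.47 for all tested genes, and the median signed value was -0.052, against 0.057. The CD libraries all lay above the control libraries in 10 genes and all below them in 20 (over all tested genes, 29.5% and 28.6%), which together are 46.9% of the 64 and compare with 58.0% of all tested genes. The number of lower genes depended on single libraries. It was 7, 8 and 6 without control replicate 1, 2 and 3, where 17.9%, 19.2% and 17.8% of all tested genes were lower, and 20 without CD replicate 3, where 29.2% of all tested genes were lower. The number of higher genes was 4 without control replicate 3 (18.02% of all tested genes), 10 without CD replicate 1 (25.1%) and 10 without CD replicate 3 (29.3%). Called at an FDR of 0.05 in each of 14 alternative settings, which do not include the test against a 1.5-fold change, were 6 of the lower genes (TMED1, TMED4, TMED9, AP1B1, AP1G2 and AP3D1) and 4 of the higher ones (TRAPPC6B, TRAPPC8, SEC16B and AP3S1). In the setting with a minimum of 50 counts, TRAPPC6B was tested only through the CD libraries. The test against a 1.5-fold change called 3 lower and 3 higher genes, and 10.2% and 10.7% of all tested genes.

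**Figure D1:**
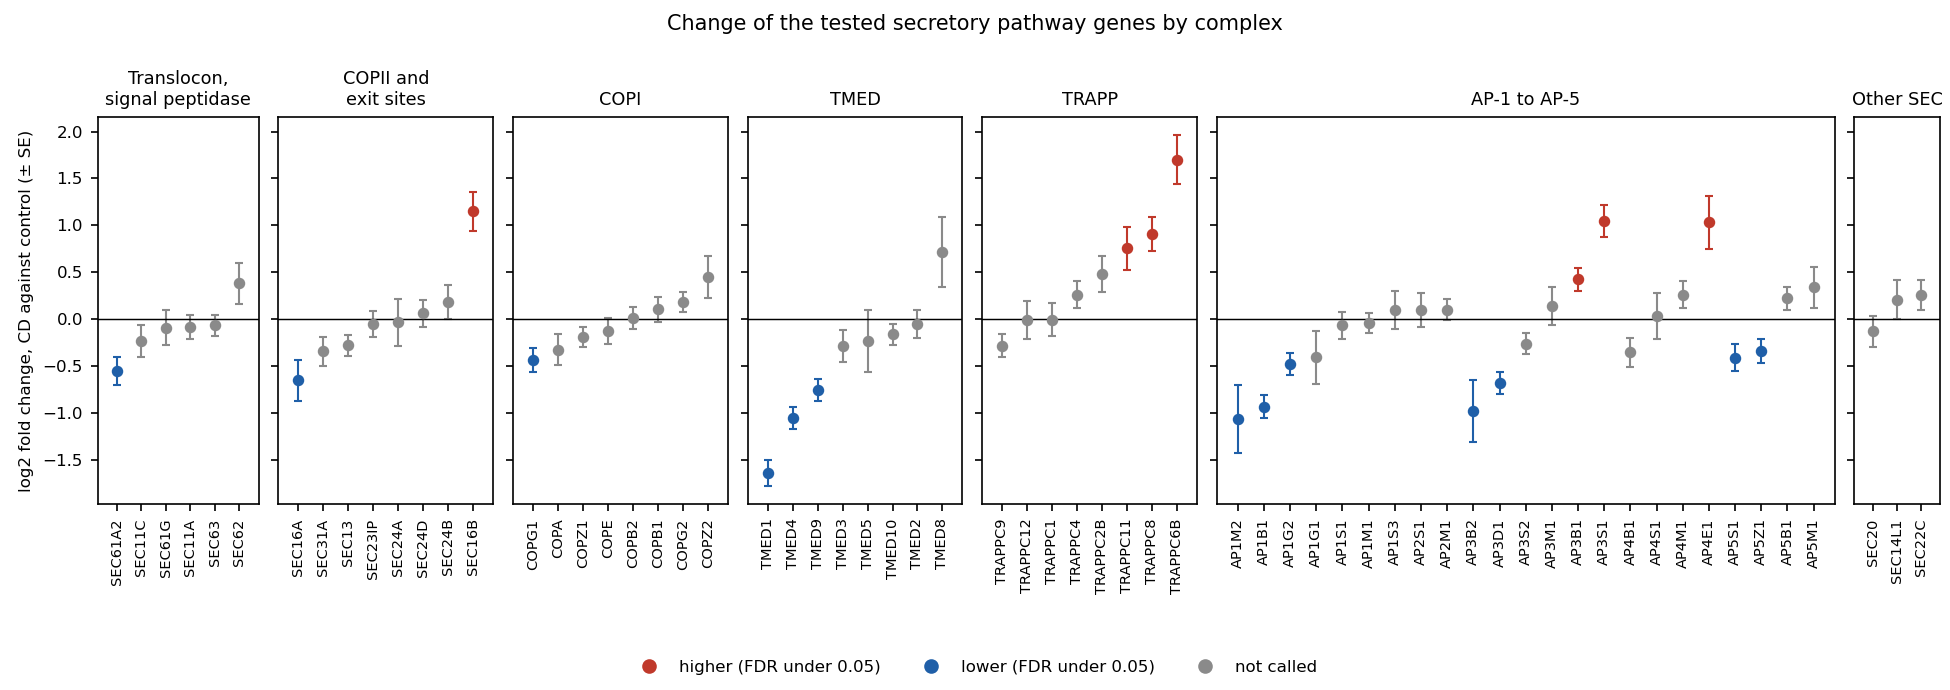
The log2 fold change (log2FC) of CD against control (vertical axis) is plotted for each of the 64 tested genes, by complex, with bars for 1 SE (standard error). Red and blue mark the 7 genes called higher and the 13 called lower at an FDR under 0.05. TMED1 is the lowest at -1.64 and TRAPPC6B the highest at 1.70.

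Among the channel and signal peptidase genes found by symbol, 1 of the 6 tested was lower (16.7%, against 22.9% of all tested genes) and none was higher (against 24.8% of all tested genes, and 0 also in DESeq2 and limma-voom, and 0 at an unadjusted p under 0.05). SEC61A2, which encodes an α subunit of the channel, was at 23.9, 24.5 and 29.6 CPM in control and 16.9, 19.3 and 16.9 CPM in CD replicates 1 to 3. All CD values lay below all control values, and the log2FC was -0.55 (SE 0.15, FDR 0.0128, edgeR). Without control replicate 3 SEC61A2 was not called (log2FC -0.45, FDR 0.0761, edgeR). The main α subunit gene, SEC61A1, is not among the 70 because the table carries it under another symbol, and was identified by its description. It was at 1037, 986 and 1198 CPM in control and 502, 552 and 492 CPM in CD libraries, with no overlap. It fell 2.08-fold, with a log2FC of -1.06 (SE 0.12, FDR 8.78e-05, edgeR), and was called in each of the 14 alternative settings. The small γ subunit SEC61G was at 83.5, 94.3 and 87.3 CPM in control and 67.3, 70.6 and 111 CPM in CD libraries. CD replicate 3 was thus the highest of all 6 and the others the lowest, and the log2FC was -0.091 with all libraries (FDR 0.713, edgeR) and -0.39 without CD replicate 3 (FDR 0.00236), but 0.052 without CD replicate 1. SEC11C, a catalytic subunit of the signal peptidase, had the same pattern, with a log2FC of -0.24 (FDR 0.282, edgeR) and of -0.48 without CD replicate 3 (FDR 0.00078), but of -0.13 without CD replicate 1. Its paralog SEC11A was not called (-0.085, SE 0.13). SEC62 and SEC63, which assist in translocation after synthesis and recruit the chaperone BiP, had log2FCs of 0.38 and -0.067 and SEs of 0.22 and 0.11. SEC62 was the highest of this group, with 32.4, 36.9 and 28.4 CPM in control and 36.1, 32.8 and 58.5 CPM in CD libraries, of which only CD replicate 3 lay above the control range, and its log2FC was 0.044 without that library.

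In the COPII group the 2 genes of the exit site scaffold moved in opposite directions, while the coat subunits were not called, so that 1 of 8 tested genes was higher and 1 lower (12.5% each, against 24.8% and 22.9% of all tested genes). SEC16A, the main organizer of exit sites, was at 197, 174 and 220 CPM in control and 156, 140 and 79.5 CPM in CD libraries. The CD values lay below the control values, the lowest being that of CD replicate 3. SEC16A fell with a log2FC of -0.65 (SE 0.22, FDR 0.0323, edgeR), but was not called without control replicate 1, 2 or 3 (FDR 0.0732, 0.0513 and 0.123), with total count scaling or without the filter on low counts (FDR 0.0642 and 0.0647), and was at -0.45 without CD replicate 3, where it was still called. SEC16B, its shorter paralog, was at 6.66, 6.72 and 6.06 CPM in control and 16.3, 16.3 and 10.4 CPM in CD libraries. It rose 2.22-fold (log2FC 1.15, SE 0.21, FDR 0.00145, edgeR). The 3 SEC24 genes in the table by symbol, which encode the subunits that bind cargo, overlapped between the groups. SEC24A was at 13.4, 12.6 and 13.7 CPM in control and 18.2, 12 and 8.43 CPM in CD libraries, SEC24B at 41.6, 34 and 35.7 against 52.4, 41.7 and 31.9 CPM, and SEC24D at 28.0, 24.9 and 24 against 30.4, 25.5 and 24.3 CPM. In each of these genes CD replicate 1 was the highest and CD replicate 3 the lowest of the CD libraries. Their log2FCs were -0.036, 0.18 and 0.061, with SEs of 0.25, 0.18 and 0.15, and SEC24B was called without CD replicate 3 (0.31, FDR 0.0348, edgeR) but was at 0.00083 without CD replicate 1. SEC23A and SEC23B, the GTPase-activating partners of SEC24, were identified by their descriptions. SEC23A was at 38.5, 42.3 and 35.4 CPM in control and 66.8, 46.0 and 36.8 CPM in CD libraries (log2FC 0.37, FDR 0.16, edgeR), and 0.51 without CD replicate 3 (FDR 0.00123) but 0.11 without CD replicate 1. SEC23B was at 74.4, 79.1 and 80.7 against 88.5, 80.1 and 67.7 CPM, which overlap (log2FC 0.013, SE 0.13). The outer cage genes SEC13 and SEC31A had all CD libraries below all control libraries, but were not called (-0.28, FDR 0.0619, and -0.34, FDR 0.0896, edgeR). SEC13 was called with total count scaling (FDR 0.0341) and without CD replicate 3 (-0.39, FDR 0.00208) and SEC31A without CD replicate 1 (-0.43, FDR 0.0377), the latter being at -0.22 without CD replicate 3. SEC23IP, which binds SEC23, was at -0.051 (SE 0.14). CD replicate 3 was the lowest CD library in 7 of the 8 tested genes of this group, against 41.0% of all tested genes.

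Of the 8 COPI genes, all of which were tested, 1 was lower and 0 were higher in edgeR (12.5% and 0%, against 22.9% and 24.8% of all tested genes, with 0 higher also in DESeq2 and limma-voom, and 0 at an unadjusted p under 0.05). COPG1, a γ subunit that joins the inner layer of the coat, was at 235, 218 and 253 CPM in control and 180, 191 and 150 CPM in CD libraries. The groups did not overlap, and COPG1 fell with a log2FC of -0.44 (SE 0.12, FDR 0.0152, edgeR). It was not called without control replicate 1 or 3 (FDR 0.0562 and 0.0727). COPG2, the alternative γ subunit, was at 68.3, 68.0 and 70.4 CPM in control and at 80.9, 78.8 and 75.5 CPM in CD libraries, all above the control values, and was not called (0.19, FDR 0.173, edgeR). The highest log2FC was that of COPZ2, at 6.30, 7.16 and 5.07 CPM in control and 6.45, 8.96 and 9.80 CPM in CD libraries, which overlap (0.45, FDR 0.123, edgeR, and 0.62, FDR 0.0333, without CD replicate 1, but 0.29 without CD replicate 3). COPA, the α subunit of the outer layer, was at 359, 354 and 390 CPM in control and at 335, 328 and 217 CPM in CD libraries, a log2FC of -0.33 that was not called (FDR 0.126, edgeR) and was -0.185 without CD replicate 3. The β subunits COPB1 and COPB2 changed least, with 0.10 and 0.013 and SEs of 0.13 and 0.12. COPE and COPZ1 were at -0.13 and -0.19 and were called without CD replicate 3 (-0.29, FDR 0.0251, and -0.26, FDR 0.0394, edgeR, but 0.0044 and -0.13 without CD replicate 1), which gave 3 lower COPI genes in that setting (37.5%, against 29.2% of all tested genes). COPZ1 was at 279, 258 and 279 CPM in control and 221, 244 and 247 CPM in CD libraries, without overlap.

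The largest decrease of the 64 tested genes was found in the TMED family, whose members span the membrane and link luminal cargo to the COPII and COPI coats. Of 8 tested members, 3 were lower (37.5%, against 22.9% of all tested genes) and none was higher in edgeR (DESeq2 and limma-voom also gave 0, as did an unadjusted p under 0.05). TMED1 (ENSNVIG00000000836) was at 66.1, 65.2 and 72.1 CPM in control and 18.3, 22.8 and 24.1 CPM in CD libraries. All CD values lay far below the lowest control value. TMED1 fell 3.12-fold (log2FC -1.64, SE 0.14, FDR 1.22e-05, edgeR). TMED4 (ENSNVIG00000021686), of the α subfamily of p24 proteins, was at 274, 264 and 307 CPM in control and 129, 129 and 148 CPM in CD libraries, and fell 2.08-fold (-1.06, SE 0.12, FDR 5.87e-05, edgeR). Its close paralog TMED9 (ENSNVIG00000023133) was at 313, 317 and 364 against 180, 201 and 207 CPM and fell 1.69-fold (-0.76, SE 0.12, FDR 4.64e-04, edgeR). When single libraries were omitted, these values ranged between -1.75 and -1.52 for TMED1, between -1.16 and -1.0 for TMED4 and between -0.83 and -0.69 for TMED9. TMED2 and TMED10, the members of the β and δ subfamilies, overlapped between the groups, with log2FCs of -0.053 and -0.16 and SEs of 0.15 and 0.11. TMED3 was at 599, 557 and 594 CPM in control and 362, 466 and 603 CPM in CD libraries. Here CD replicate 3 was the highest of all libraries and the other CD libraries the lowest, and TMED3 was not called with all libraries (-0.29, FDR 0.187, edgeR) but was called without CD replicate 3 (-0.53, FDR 1.10e-04), and was at -0.11 without CD replicate 1. TMED8 had the highest value of the family, with 8.02, 6.07 and 6.28 CPM in control and 17.8, 10.6 and 4.97 CPM in CD libraries. It was not called with all libraries (0.72, FDR 0.142, edgeR) and was called without CD replicate 3 (1.03, FDR 2.53e-05), and was at 0.215 without CD replicate 1. TMED5 was at -0.23 with all libraries and was called lower without CD replicate 1 (-0.76, FDR 0.0173, edgeR), but was at -0.11 without CD replicate 3. TMED7, identified by its description, was at 42.9, 36.6 and 35.9 CPM in control and at 32.6, 29.6 and 24.2 CPM in CD libraries (-0.42, FDR 0.0447, edgeR). The call was lost on leaving out any control library (FDR 0.186, 0.0844 and 0.0805) or CD replicate 2 (FDR 0.0703), with upper quartile or total count scaling (FDR 0.0649 and 0.0797) and with the replicate block (FDR 0.0629).

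**Figure D2:**
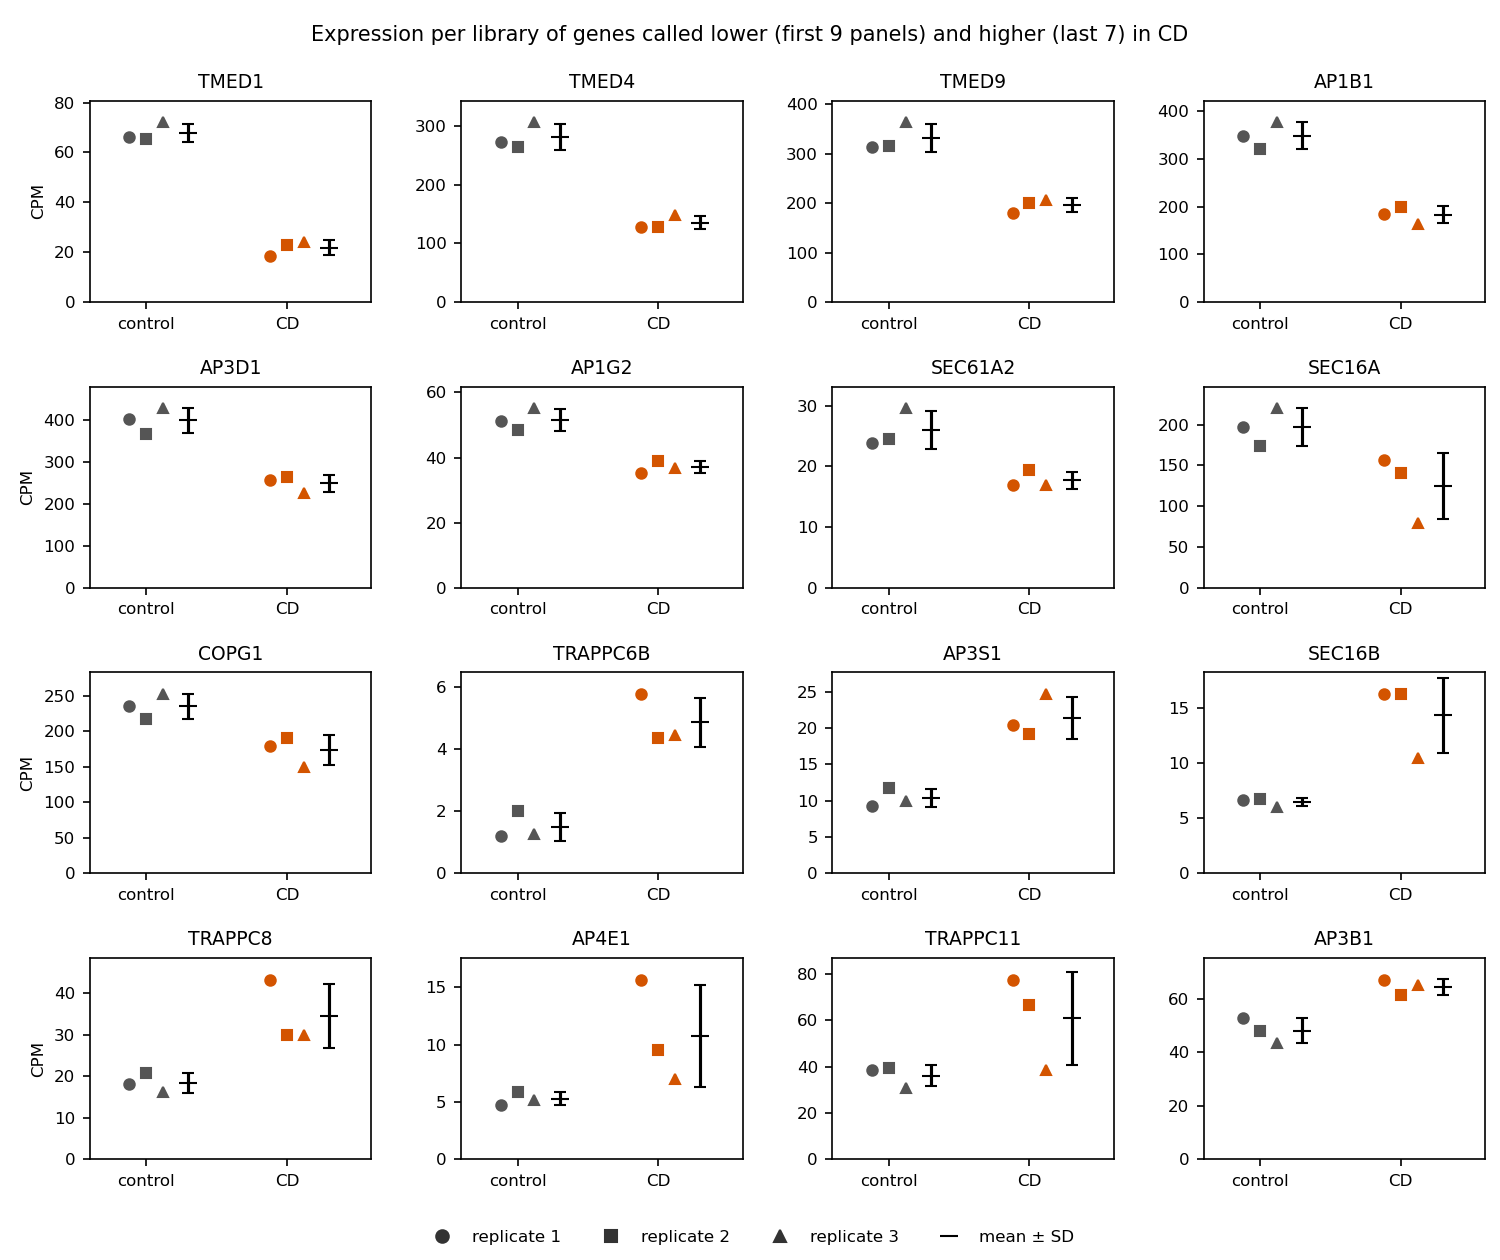
Expression in CPM (vertical axes, each starting at 0) is plotted per library for 9 genes called lower and 7 called higher in CD. The marker shape gives the replicate number, and the bar beside the points gives the mean ± SD of 3 libraries. TMED1 lies between 65.2 and 72.1 CPM in control and between 18.3 and 24.1 CPM in CD libraries, and in TRAPPC11 the lowest CD library, at 38.5 CPM, lies within the control range.

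Of the 8 TRAPP genes tested, 3 were higher (37.5%, against 24.8% of all tested genes) and none was lower (0 lower also in DESeq2 and limma-voom; the FDR of the lowest gene, TRAPPC9, was 0.0836 and its unadjusted p 0.0448). TRAPPC6B, a small core subunit, was at 1.22, 2.02 and 1.27 CPM in control and 5.78, 4.36 and 4.47 CPM in CD libraries, which is 68 counts in all 3 control libraries and 227 in the CD libraries. It rose 3.25-fold (log2FC 1.70, SE 0.26, FDR 5.09e-04, edgeR). TRAPPC8, a subunit of the TRAPPIII complex that acts in autophagy as well as in ER to Golgi transport, was at 18.2, 20.8 and 16.1 CPM in control and 43.3, 30.0 and 30.0 CPM in CD libraries. The groups did not overlap, and TRAPPC8 rose 1.88-fold (0.91, SE 0.19, FDR 0.00267, edgeR). TRAPPC11, another subunit of TRAPPIII, was at 38.4, 39.2 and 30.9 CPM in control and 77.7, 66.6 and 38.5 CPM in CD libraries. CD replicate 3 thus lay within the control range. TRAPPC11 rose with a log2FC of 0.75 (SE 0.23, FDR 0.0217, edgeR), with 0.96 without CD replicate 3, and lost its call on leaving out control replicate 2 or 3 (FDR 0.0534 and 0.101) or CD replicate 1 or 2 (FDR 0.0615 and 0.082). TRAPPC9, which marks the TRAPPII complex, was the lowest of the group, with 97.1, 86.9 and 101.4 CPM in control and 79.1, 85.8 and 69.3 CPM in CD libraries, and was not called (-0.29, SE 0.12). TRAPPC1, TRAPPC4 and TRAPPC12 were at -0.0059, 0.26 and -0.0076, with SEs of 0.17, 0.14 and 0.21, and TRAPPC4 was called without CD replicate 1 (0.38, FDR 0.0347, edgeR) and was at 0.067 without CD replicate 3. TRAPPC2B was at 0.48 (FDR 0.0634, edgeR), and since it is a near copy of TRAPPC2, its reads are uncertain. A further 4 subunits were identified by their descriptions. TRAPPC6A, the paralog of TRAPPC6B, was at 45.4, 41.7 and 39.0 CPM in control and 20.3, 22.3 and 31.3 CPM in CD libraries, and fell 1.71-fold (-0.77, SE 0.18, FDR 0.00485, edgeR). TRAPPC3 and TRAPPC2L were at -0.22 and -0.13 and were called without CD replicate 3 (-0.34, FDR 0.00684, and -0.34, FDR 0.0111, edgeR) but were at -0.14 and 0.0052 without CD replicate 1, while TRAPPC13 was at 0.32 (FDR 0.201). Over all 12 TRAPP genes, 3 were higher (25.0%) and 1 was lower (8.33%), with 6 values above and 6 below 0 and a median of 0.13.

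Among the adaptor complexes, AP-1 had 3 lower genes (42.9%, against 22.9% of all tested genes) and no higher genes of 7 tested (0 higher also in DESeq2 and limma-voom, and 0 at an unadjusted p under 0.05). AP1B1, the large β subunit, was at 349, 322 and 377 CPM in control and 185, 200 and 164 CPM in CD libraries. The groups lay far apart, and AP1B1 fell 1.91-fold (log2FC -0.93, SE 0.12, FDR 1.61e-04, edgeR). AP1G2, the second γ subunit gene, was at 51.2, 48.5 and 55.2 against 35.4, 39.0 and 36.8 CPM and fell 1.39-fold (-0.48, SE 0.12, FDR 0.00824, edgeR). AP1G1, the principal γ subunit, was at 51.1, 46.5 and 42.9 CPM in control and 48.6, 39.0 and 18.1 CPM in CD libraries. Only CD replicate 3 was far below the control range, and AP1G1 was not called (-0.41, SE 0.29, FDR 0.264, edgeR). It was at -0.13 without CD replicate 3 and -0.70 without CD replicate 1 (FDR 0.368 and 0.0524), and was called lower with the replicate block (-0.51, FDR 0.0459). AP1M2, the medium subunit of polarized epithelial cells, was at 1.22, 1.08 and 1.49 CPM in control and 0.307, 0.736 and 0.792 CPM in CD libraries, from 59 and 28 counts. AP1M2 had enough counts for the test only because of the control libraries, as CD replicate 1 was too low. The groups did not overlap, and AP1M2 had the lowest value of all adaptor genes, with a log2FC of -1.06 (FDR 0.0342, edgeR). This call was absent in DESeq2 (FDR 0.111), on leaving out any control library (FDR 0.0728, 0.0563 and 0.134, edgeR) and on leaving out CD replicate 1 or 2 (FDR 0.093 and 0.0503). The ubiquitous medium subunit AP1M1 and the small subunits AP1S1 and AP1S3 were at -0.042, -0.068 and 0.099, with SEs of 0.11, 0.14 and 0.20. AP1M1 was at 216, 196 and 214 CPM in control and 195, 215 and 197 CPM in CD libraries, and AP1S1 was called without CD replicate 3 (-0.27, FDR 0.035, edgeR) but was at 0.060 without CD replicate 1. AP-2, the adaptor of endocytosis, was represented by AP2M1 and AP2S1, both not called (0.10 and 0.094, SEs 0.11 and 0.18). Its β subunit gene AP2B1, identified by its description, was at 104, 105 and 98.5 CPM in control and 150, 147 and 119 CPM in CD libraries. It rose 1.36-fold (0.44, SE 0.12, FDR 0.0137, edgeR), and lost its call on leaving out control replicate 1 or 3 (FDR 0.0562 and 0.0666) or CD replicate 2 (FDR 0.074).

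AP-3, which sorts cargo to lysosomes and related organelles, had 2 higher and 2 lower genes of 6 tested (33.3% each, against 24.8% and 22.9% of all tested genes). AP3S1, a small subunit, was at 9.31, 11.7 and 10.0 CPM in control and 20.4, 19.1 and 24.7 CPM in CD libraries, and rose 2.07-fold (log2FC 1.05, SE 0.17, FDR 7.57e-04, edgeR). AP3B1, the ubiquitous β subunit, was at 52.8, 47.8 and 43.5 against 67.2, 61.2 and 65.0 CPM and rose 1.34-fold (0.43, SE 0.12, FDR 0.0159, edgeR), though it was not called without control replicate 2 or 3 (FDR 0.0601 and 0.0874). The lower genes were AP3D1 and AP3B2. AP3D1, the δ subunit, was at 402, 368 and 429 CPM in control and 258, 264 and 225 CPM in CD libraries, and fell 1.61-fold (-0.68, SE 0.12, FDR 9.45e-04, edgeR). AP3B2, the neuronal β subunit, was at 1.0, 1.01 and 0.826 CPM in control and 0.430, 0.613 and 0.360 CPM in CD libraries, from 43 and 22 counts. AP3B2 had enough counts for the test only in the control libraries, which fixed the direction of its call. Its log2FC of -0.98 (FDR 0.0329, edgeR) was not called in 8 of 13 alternatives, DESeq2 (FDR 0.168), the replicate block (FDR 0.0511) and the omission of CD replicate 3 (FDR 0.0764), CD replicate 1 (FDR 0.0848) or control replicate 1, 2 or 3 (FDR 0.0969, 0.0894 and 0.0592) among them. AP3S2 was at 55.0, 51.2 and 56.3 CPM in control and 44.6, 46.3 and 44.7 CPM in CD libraries, with no overlap, and was not called (-0.26, FDR 0.0822, and -0.29, FDR 0.0348, without CD replicate 3, edgeR). AP3M1 was at 0.14 (SE 0.20).

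In AP-4, which exports the autophagy protein ATG9A from the trans-Golgi network, 1 of 4 genes was higher (25.0%, against 24.8% of all tested genes). AP4E1, the ε subunit, was at 4.73, 5.85 and 5.18 CPM in control and 15.7, 9.51 and 6.99 CPM in CD libraries, so that the CD libraries differed among themselves by more than 2-fold. It rose 2.05-fold (log2FC 1.03, SE 0.28, FDR 0.0133, edgeR), had a value of 0.67 without CD replicate 1, and was not called without control replicate 1 or 3 (FDR 0.0542 and 0.0564). AP4B1 and AP4M1 were at -0.35 and 0.26 and were called without CD replicate 1 (-0.45, FDR 0.036, and 0.38, FDR 0.0353, edgeR), AP4M1 being at 0.13 without CD replicate 3, whereas AP4S1 was at 0.035 (SE 0.25). In AP-5, an adaptor of late endosomes, 2 of 4 genes were lower (50.0%, against 22.9% of all tested genes), AP5S1 and AP5Z1, by small amounts (-0.41, FDR 0.0366, and -0.34, FDR 0.049, edgeR). Both calls were lost on leaving out any control library, CD replicate 1 or CD replicate 2, with FDR values of 0.0574 to 0.148 for AP5S1 and of 0.0634 to 0.197 for AP5Z1. With the replicate block, too, neither was called (FDR 0.0657 and 0.10), and AP5Z1 was not called with upper quartile scaling, without the filter or at a minimum of 50 counts (FDR 0.0571, 0.0594 and 0.0516). AP5B1 was at 0.22 and was called without CD replicate 1 (0.32, FDR 0.0316, edgeR) but was at 0.10 without CD replicate 3, and AP5M1 was at 0.34 (FDR 0.235).

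The remaining SEC genes were not called. SEC22C, a SNARE-like protein of the early secretory pathway, was at 0.26 (SE 0.16), and SEC20, the SNARE also known as BNIP1, at -0.13 (SE 0.16). SEC22A and SEC22B, identified by their descriptions, were at -0.31 and -0.18 (FDR 0.181 and 0.303, edgeR), and SEC22A was called without CD replicate 3 (-0.50, FDR 0.0128). SEC14L1, a lipid-binding protein that shares only the SEC name with the coats, was at 34.1, 32.5 and 36.0 CPM in control and 48.7, 43.4 and 26.1 CPM in CD libraries (0.21, FDR 0.437, edgeR, and 0.39, FDR 0.00567, without CD replicate 3, but 0.037 without CD replicate 1). The 6 genes with too few counts for the test were AP3M2 with 4 counts over all control and 16 over all CD libraries, SEC31B with 3 and 2, TMED6 with 5 and 4, SEC14L5 with 4 and 9, and SEC14L3 and SEC14L4 with 1 and 0 each.

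Many of these subunits exist as paralogs that replace each other in a complex, and the ratio of both genes within a library does not depend on the scaling of the libraries. Of 17 such pairs, 10 (58.8%) had ratios that did not overlap between CD and control (p = 0.1 for each in a two-sided exact permutation test, which 3 libraries against 3 cannot go below, and 0.17 adjusted over the pairs), so that no single pair could pass a threshold of 0.05. Single genes did not overlap in 58.0% of all tested genes, and other gene pairs were not examined. The widest shift was that of TRAPPC6A to TRAPPC6B. Its log2 ratio was 5.22, 4.37 and 4.94 in control and 1.81, 2.35 and 2.81 in CD libraries, a difference of -2.52. The log2 ratio of SEC16A to SEC16B went from 4.92 ± 0.247 to 3.10 ± 0.167 (SD, n = 3 each), a difference of -1.82, with each library on the side of its group. Both of these shifts came from a lower first and a higher second gene. For AP3S1 over AP3S2 the difference was 1.31, and for AP3B1 over AP3B2 it was 1.48. The latter rests on few counts of AP3B2, which was tested only through the control libraries. The ratio of AP1M1 to AP1M2 differed by 1.11 and depended on CD replicate 1, without which it was 0.70. COPZ1 over COPZ2 and COPG1 over COPG2 each differed by -0.63. SEC61A1 over SEC61A2 differed by -0.51, from 5.37 ± 0.061 to 4.86 ± 0.028, as the former fell more than the latter. The ratios of SEC24A to SEC24B and to SEC24D overlapped between the groups, and that of SEC23A to SEC23B did not, with a difference of 0.32 that was 0.17 without CD replicate 1.

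**Figure D3:**
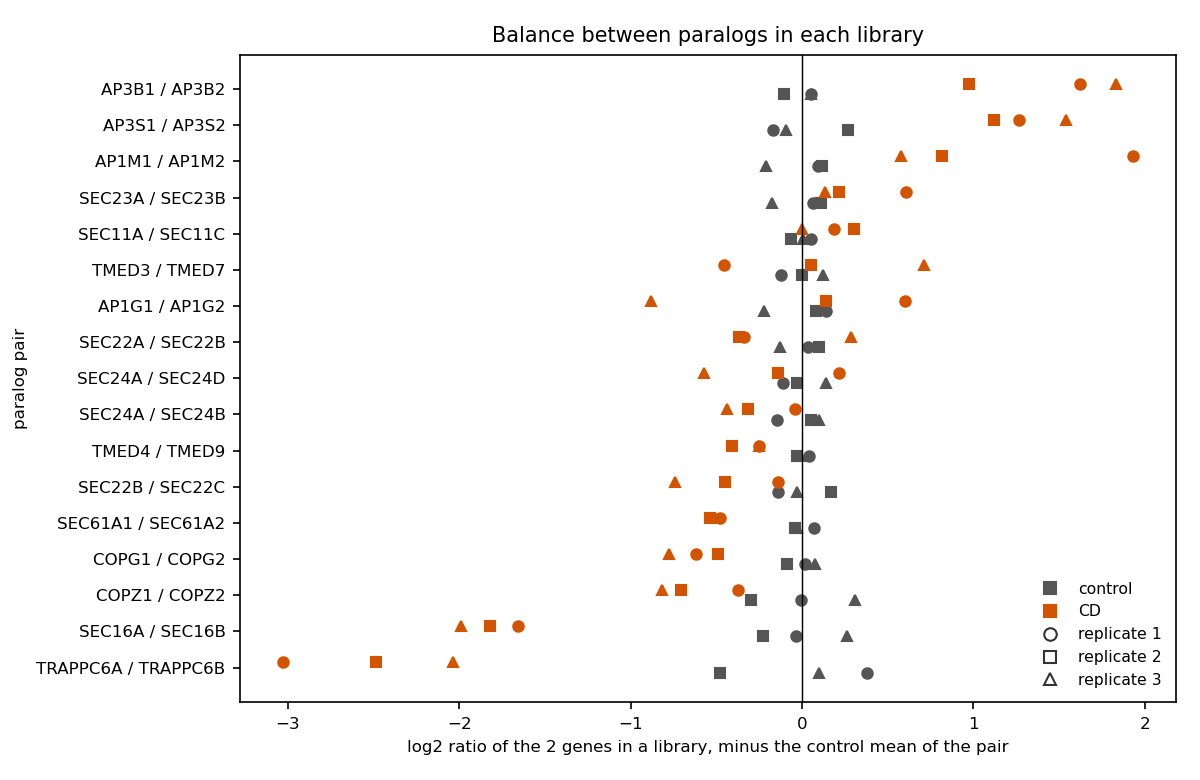
For each of 17 pairs of paralogs (vertical axis), the log2 ratio of both genes in each library is plotted as its difference from the control mean of the pair (horizontal axis), with control in grey and CD in orange and the replicate number as the marker shape. A few markers coincide. TRAPPC6A over TRAPPC6B and SEC16A over SEC16B have the widest shifts to the left, and AP3B1 over AP3B2 has, on average, the widest shift to the right (1.48).

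Together the 70 genes took 0.702%, 0.713% and 0.727% of the gene reads of control replicates 1 to 3 and 0.624%, 0.620% and 0.602% of those of CD replicates 1 to 3. The groups did not overlap (p = 0.1 in a two-sided exact permutation test, its lower limit here). After TMM scaling, the summed expression was 7180 ± 264 CPM in control and 6133 ± 169 CPM in CD libraries (SD, n = 3 each). The net difference of -1047 CPM came mainly from abundant genes, with AP1B1 contributing -166, AP3D1 -151, TMED4 -146, TMED9 -135 and TMED3 -106 CPM. The summed TMED reads went from 1667 ± 84.0 to 1205 ± 137 CPM, those of COPII from 797 ± 37.1 to 642 ± 94.8 CPM, those of COPI from 1367 ± 47.5 to 1192 ± 59.9 CPM and those of the AP complexes from 2534 ± 104 to 2249 ± 119 CPM, each without overlap. The summed TRAPP reads were 321, 315 and 328 CPM in control and 372, 376 and 359 CPM in CD libraries, with all CD libraries above all control libraries. With the 4 TRAPP subunits identified by their descriptions, the sums were 546, 537 and 551 CPM in control and 535, 554 and 581 CPM in CD libraries, which overlap. The sums of the 6 channel and signal peptidase genes overlapped, with 427 ± 18.5 and 403 ± 68.8 CPM. With SEC61A1 added, they were 1501 ± 113 and 918 ± 56.9 CPM, without overlap.

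The partners of this machinery were followed with lists written from general knowledge of the pathway. Of 103 genes listed, 92 rows of the table carried a listed symbol and 91 were tested. The edgeR test called 15 of them higher and 22 lower in CD (16.5% and 24.2%, beside 24.8% and 22.9% of all tested genes), with a median log2FC of -0.053. Without CD replicate 3, 17 were higher and 34 lower, beside 29.3% and 29.2% of all tested genes, and the median was -0.138. The counts of the single lists that follow are small and are given beside the same shares of all tested genes. Among the partners in translocation, 1 was higher and 6 were lower of 18 (5.56% and 33.3%). SSR1, a subunit of the translocon-associated TRAP complex, fell from 72.5 ± 3.36 to 32.8 ± 4.70 CPM (SD, n = 3 each; log2FC -1.14, FDR 9.43e-05, edgeR), HYOU1, an ER chaperone, fell with -1.15 (FDR 1.57e-04), and HSPA5, which encodes BiP, with -0.64 (FDR 0.00113). SRPRA, the α subunit of the signal recognition particle receptor, fell with -0.43 (FDR 0.0123). The higher gene was SRP9, a subunit of the signal recognition particle (0.39, FDR 0.038, edgeR). In a list of exit site organizers and cargo receptors that also holds CREB3L1 and CREB3L2, 3 were higher and 5 lower of 15 (20.0% and 33.3%). The higher ones were TFG and KLHL12, which act at exit sites in COPII assembly, and the cycling protein ERGIC1 (0.50, 0.42 and 0.33, FDR 0.00662, 0.016 and 0.0249, edgeR). CREB3L1, a transcription factor for secretory genes, was at 188 ± 19.8 and 102 ± 7.12 CPM (-0.87, FDR 2.44e-04, edgeR), and the cargo receptors LMAN2, SURF4 and LMAN2L fell with -0.63, -0.60 and -0.66 (FDR 0.00118, 0.00203 and 0.00371). CREB3L2, the paralog of CREB3L1, fell with -1.45 (FDR 0.00494, edgeR). Of 4 retrieval receptors, the KDEL receptors KDELR2 and KDELR3 were lower (50.0%, -0.85, FDR 2.85e-04, and -0.49, FDR 0.00513, edgeR) and none was higher (0 also at an unadjusted p under 0.05). Without CD replicate 3, all 4 retrieval receptors were lower. In that setting 0 of the 18 translocation partners were higher and 9 lower, and 3 of the 15 genes of the exit site list were higher and 7 lower. Among all tested genes 29.3% were then higher and 29.2% lower.

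Among the GTPases of coat assembly and their regulators, 4 rows were higher and 4 lower of 16 (25.0% each). The symbol ARF1, for the GTPase that recruits COPI and AP-1, stands on 2 rows of the table. The row with the description of that gene was at 744 ± 28.3 and 674 ± 68.5 CPM and was not called (-0.14, FDR 0.352, edgeR), whereas the other, with no description, rose from 32.3 ± 1.52 to 118 ± 5.36 CPM (1.87, FDR 1.38e-06), so that its identity is uncertain. ARFGAP3, a GTPase-activating protein of the COPI cycle, rose with 1.54 (FDR 2.38e-05, edgeR), ARF5 rose with 0.74 (FDR 0.00373), and ARFGAP2 fell with -0.49 (FDR 0.00428). SAR1A and SAR1B, the GTPases of COPII, were not called (0.074 and -0.27, SEs 0.19 and 0.18). Of the SNAREs and tethers between ER and Golgi, 5 were higher and 3 lower of 24 (20.8% and 12.5%), with the tether USO1 (p115) at 0.76 (FDR 6.08e-04, edgeR), the SNARE USE1 at 0.69 (FDR 0.00763), and COG1 and ZW10, subunits of tethering complexes, at -0.48 and -0.60 (FDR 0.00847 and 0.0106). Without CD replicate 3, 7 of these 24 genes were higher and 6 lower, and of the 16 GTPase rows 5 were higher and 6 lower. Among all tested genes 29.3% were then higher and 29.2% lower. Among 8 coat subunits whose symbols the selection does not cover, GGA2, a clathrin adaptor of the Golgi, was lower (-0.85, FDR 0.00122, edgeR) and AP2A2, an α subunit of AP-2, was higher (0.32, FDR 0.0482). The COPI δ subunit ARCN1 and the clathrin chains CLTA, CLTB and CLTC were not called, with log2FCs between -0.13 and 0.15. In the transport of SREBPs, INSIG1 was higher (1.67, FDR 8.48e-06, edgeR) and SREBF1 lower (-0.74, FDR 0.00146), while the escort SCAP was at 316 ± 30.3 and 300 ± 26.5 CPM (-0.074, SE 0.12). Of the partner calls named here, 6 were lost in some of the 14 alternative settings, namely AP2A2 in 9, SRP9 in 7, ERGIC1 in 5, KLHL12 in 2, and SRPRA and ZW10 in 1 each (highest FDR 0.203, 0.137, 0.111, 0.0995, 0.058 and 0.057). Calls counted above but not named were lost as well. These were SSR2 in 5 and SSR3 in 4 settings among the translocation partners, and ARF6 in 3 among the GTPases. Among the SNAREs and tethers they were NSF in 7, NBAS and COG5 in 5 each and BET1 in 3. Each of these included the omission of at least 1 control library, and USE1 was at 0.44 without CD replicate 3, where it was still called.

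Without CD replicate 3, 19 of the 20 calls were made again, AP3B2 being the exception, and 11 further genes of the collection were called, while the shares of all tested genes went from 24.8% and 22.9% to 29.3% and 29.2%. Of these, TMED8, SEC14L1 and SEC24B were higher and AP1S1, AP3S2, COPE, COPZ1, SEC13, TMED3, SEC11C and SEC61G were lower. CD replicate 3 was the highest CD library in 5 of the 6 tested channel and signal peptidase genes and in 5 of the 8 TMED genes, against 40.1% of all tested genes. Over all 64 genes it was the highest in 43.8% and the lowest in 37.5%, against 40.1% and 41.0% of all tested genes. The part of the unmapped share of this library, given above, in these values was not tested.

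**Figure D4:**
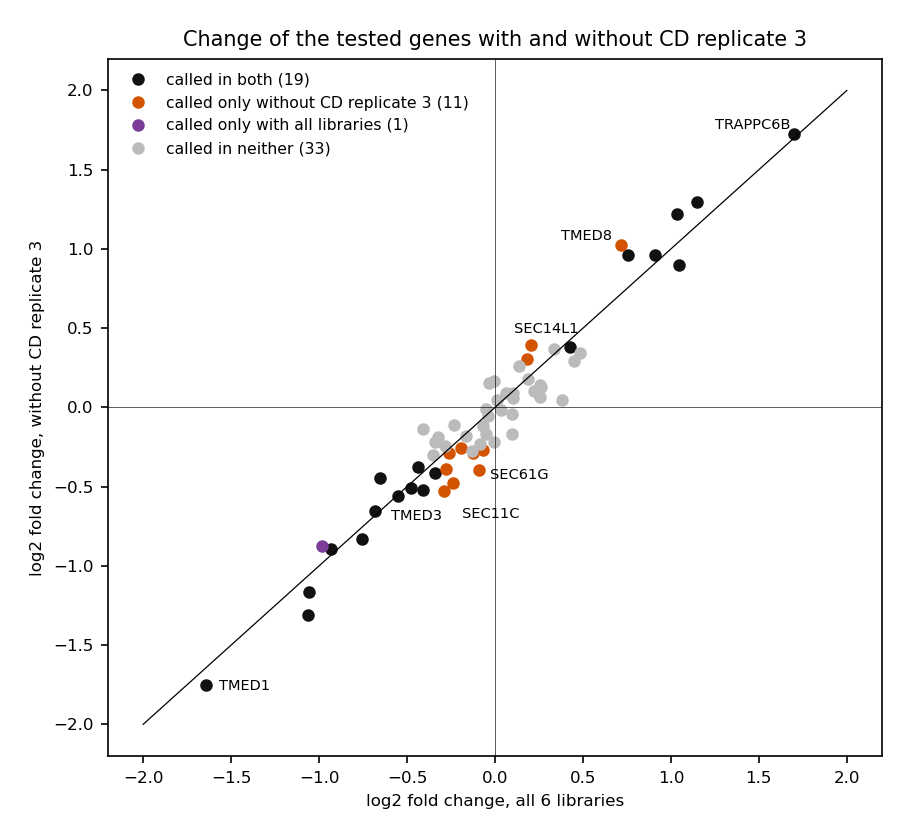
The log2FC of each of the 64 tested genes with all 6 libraries (horizontal axis) is plotted against that without CD replicate 3 (vertical axis), and the diagonal marks equal values. Orange points are the 11 genes called only without this library, which include TMED3, TMED8, SEC11C and SEC61G, and the purple point is AP3B2.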

How the data were processed

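Poly(A) mRNA of 6 libraries was sequenced. According to the study's methods and the submitters' processing notes, reads were trimmed with fastp 0.20.1, aligned to the mink genome with STAR 2.7.2a and compared with DESeq2 1.30.1 in R 4.0.3. The counting program and its strand setting are not given in the sources used here, so counts of overlapping genes and near-identical copies are uncertain. The authors deposited raw counts per gene for each library. The 4 rows that name no gene (unmapped, multimapped, without feature, ambiguous) held 29.3% to 47.2% of the reads and were left out. The normalized files of the authors were not used, because their values, matched by gene identifier, were uncorrelated with the counts in rank (Spearman at most 0.00674 in size).

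Genes were filtered with filterByExpr (minimum count 10, minimum total count 15), scaled by TMM and tested with glmQLFit (robust) and glmQLFTest of edgeR 4.0.16 in R 4.3.3, over 6 libraries with the condition as the only term, with Benjamini-Hochberg adjustment over 12148 genes. The standard error is the log2 fold change divided by the square root of F, with a median of 0.154 over the tested secretory genes. The genes and lists were chosen with earlier results of these data known. Genes with values per library were the 8 called genes with the lowest FDR in each direction (7 higher), the highest and lowest of each group (channel and signal peptidase, COPII, COPI, TMED, TRAPP, all AP complexes together), the SEC23 and SEC24 genes, and the 6 paralog pairs with the widest shift. SEC20 was placed with the SNAREs, and 11 subunits that the table lists under other symbols or none were added by description, after the values were seen, as were other genes given by values. For partners, the 4 called genes with the lowest FDR per list were named, with SRP9 and the other called exit site and cargo receptor genes added after their values were seen. Alternatives were DESeq2 1.42.0, limma-voom (limma 3.58.1), other scalings and filters, a block for the replicate number, omission of single libraries, an FDR of 0.01 and a test against a 1.5-fold change. No sequences or coordinates are given, as no sequence file of the authors' assembly was used here.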

Additional observations from a re-analysis of the deposited data

How the results depend on the processing

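DESeq2, limma-voom, the other scalings and the other filters gave 7 higher secretory genes each and 10 to 13 lower ones, against 7 and 13. An FDR of 0.01 gave 4 and 6 (16.5% and 16.8% of all tested genes), and a test against a 1.5-fold change gave 3 and 3 (10.7% and 10.2%). With single libraries left out, 4 to 10 genes were higher and 6 to 20 lower. The replicate numbers were not treated as pairs, since libraries of the same number had deviations that correlated at -0.024, -0.33 and -0.18, and the replicate block gave 7 higher and 11 lower genes. The median log2 fold change of the 64 genes was -0.018 with upper quartile scaling and -0.127 to -0.026 with single libraries left out. For the AP complexes it was -0.010 with upper quartile scaling, -0.0078 without the filter, 0.032 at a minimum of 50 counts and -0.133 to -0.0050 with single libraries left out. For COPI it was -0.077 in DESeq2 and with its size factors, -0.025 with upper quartile scaling and -0.082 to -0.032 with single libraries left out. That range was -0.159 to 0.038 for COPII, whose median of -0.044 changed sign without CD replicate 3, -0.45 to -0.21 for TMED, 0.25 to 0.44 for TRAPP and -0.31 to -0.033 for the channel and signal peptidase. Reversals were found in genes that were not called. COPB2 was at -0.0093 in DESeq2 and -0.0094 with its size factors, TRAPPC1 at 0.026 with upper quartile scaling and 0.0012 at 50 counts, and TRAPPC12 at 0.025 with upper quartile scaling and 0.016 with total counts. With single libraries left out, the log2 fold change ranged over -0.27 to 0.060 for AP1S1, -0.039 to 0.19 for AP1S3, -0.17 to 0.29 for AP2S1, -0.079 to 0.26 for AP3M1, -0.14 to 0.22 for AP4S1, -0.066 to 0.058 for COPB2, -0.29 to 0.0044 for COPE, -0.36 to 0.15 for SEC24A, -0.030 to 0.13 for SEC24D, -0.19 to 0.043 for TMED2, -0.22 to 0.16 for TRAPPC1, -0.18 to 0.16 for TRAPPC12, -0.23 to 0.0054 for SEC11A and -0.39 to 0.052 for SEC61G. The cause of these changes was not tested. AP1M2 and AP3B2 had 59 and 43 counts over the control libraries, and the part of depth in their lost calls was not tested.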
